A study of Mus musculus with 6 samples.

Results

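The genes described here are 10 that handle iron and haem: Hmox1, Blvrb, Tfrc, Slc11a2, Steap3, Fth1, Ftl1, Slc40a1, Cp and Ireb2. They were taken by name, for their role and with earlier results on these arrays known, from the 19937 genes that the array measured through a probe set with a single gene symbol. The probe set of a gene was chosen by its level, as the one with the highest mean over all 6 arrays. Each of the 10 has only 1 such probe set, so the level decided nothing among them, and all 10 gave a value. The arrays hold RNA of mouse A316 cells, a primary adenocarcinoma line with a knockout of cebp alpha. PTC-209, which the labels call an inhibitor of Bmi, was added in 0.5% DMSO to the cells of 3 arrays, and the 3 control arrays are of cells in 0.5% DMSO without the compound. Both groups therefore carry the knockout and the solvent, and both come from a single line. The sources used here do not give the dose, the exposure time or the way the knockout was made.

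Mammalian cells take up iron bound to transferrin through the transferrin receptor, reduce it in the endosome with a STEAP reductase and pass it to the cytosol through the divalent metal transporter. Iron that is not used is stored inside ferritin, a shell of heavy and light chains, or leaves the cell through ferroportin, where a copper oxidase such as ceruloplasmin helps to load it onto transferrin. Haem oxygenase opens the haem ring and frees its iron, and biliverdin reductases act on the pigment that remains. Iron regulatory proteins bind a stem-loop in the messenger RNAs of several of these genes, and the repressor BACH1 and the activator NRF2, each paired with a small Maf protein, compete at the promoters and enhancers of Hmox1 and the ferritin genes.

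The RefSeq promoter table of build GRCm38.p6, which holds 250 bases before and 50 after each listed start, matched 7 members, with 14 windows in all. Hmox1, Slc40a1 and Slc11a2 were not matched. The 250 bases before the start are shown for Fth1, Ftl1 and Blvrb, which rose, and for Cp, which fell, since these are the members with a window that passed the test between the groups. Where a gene has several starts, the window with the highest GC content was taken. Capitals mark the CCAAT box, read on either strand, a letter group looked for after the sequences had been seen. All runs read 5′ to 3′ along the gene's strand. The Fth1 stretch is chr19:9982396-9982645 on the plus strand, the Ftl1 stretch chr7:45459887-45460136 on the minus strand, the Blvrb stretch chr7:27447728-27447977 on the plus strand and the Cp stretch chr3:19956999-19957248 on the plus strand.
Fth1: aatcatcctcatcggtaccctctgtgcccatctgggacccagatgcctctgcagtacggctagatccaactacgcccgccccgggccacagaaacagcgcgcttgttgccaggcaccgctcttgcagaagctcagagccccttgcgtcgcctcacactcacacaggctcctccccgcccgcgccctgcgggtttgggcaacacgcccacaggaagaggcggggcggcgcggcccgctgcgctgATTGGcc
Ftl1: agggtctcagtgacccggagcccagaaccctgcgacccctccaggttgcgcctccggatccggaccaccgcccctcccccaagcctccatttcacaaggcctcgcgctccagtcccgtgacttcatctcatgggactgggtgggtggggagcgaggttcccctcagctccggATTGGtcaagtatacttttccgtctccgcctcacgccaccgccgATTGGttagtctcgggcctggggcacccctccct
Blvrb: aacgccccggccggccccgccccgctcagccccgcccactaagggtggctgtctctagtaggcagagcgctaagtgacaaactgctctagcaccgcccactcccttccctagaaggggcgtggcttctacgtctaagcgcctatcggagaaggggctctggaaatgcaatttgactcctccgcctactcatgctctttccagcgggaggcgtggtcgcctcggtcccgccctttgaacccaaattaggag
Cp: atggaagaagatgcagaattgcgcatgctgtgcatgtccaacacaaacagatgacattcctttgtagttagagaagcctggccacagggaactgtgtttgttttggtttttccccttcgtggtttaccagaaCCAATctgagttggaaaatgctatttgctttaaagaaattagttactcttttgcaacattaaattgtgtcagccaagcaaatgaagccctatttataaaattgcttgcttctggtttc

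In the stretches shown, the CCAAT boxes number 1 in Fth1, 2 in Ftl1, 1 in Cp and 0 in Blvrb. The windows of Fth1 and Cp that are not shown hold none. The box was found in 5 of the 14 member windows and in 37.4% of all 32851 windows of the table. The share of G or C was 66.8% in the stretch of Fth1, 65.2% in Ftl1, 62% in Blvrb and 39.2% in Cp. For Fth1, Blvrb and Cp, which have several starts, the window was picked for its GC content. No share over all windows stands beside these values, so they describe only the stretches shown. The core of the antioxidant response element to which NRF2 and BACH1 bind (TGACNNNGC, both strands) was found in 0 of the 14 member windows and in 12.4% of all windows. AP-1 sites (TGACTCA, both strands, 5.20% of all windows) and the core of the C/EBP-ATF composite element (TGATGNAA, both strands, 3.97%) were also found in 0 of the 14. The hypoxia response core (ACGTG, both strands, 19.6% of all windows) was found in 3, 1 of Blvrb and both windows of Tfrc, which overlap and share the same site. The loop letters of the iron-responsive element (CAGTGN, same strand, in the 50 bases after the start, 7.08% of all windows) were found in 1, at a start of Steap3. A missing match says only that these letters are not in the window.

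Levels below are log2 expression values as the authors deposited them, with mean ± SD of the 3 arrays of a group. A gene is said to have risen or fallen when its p-value in a limma fit over all 28192 probe sets, adjusted by Benjamini and Hochberg, was under 0.05. Of the 10 members 5 rose, Hmox1, Blvrb, Ftl1, Slc11a2 and Fth1, against 12.9% of all genes. Cp alone fell, against 13.7% of all genes. Over both directions 6 members were called, against 26.6% of all genes. All 3 PTC-209 arrays lay above all 3 DMSO arrays for 7 members, against 21.1% of all genes, and below them for 2, Cp and Tfrc, against 19.4%. The groups were thus apart for 9 members, against 40.5% of all genes. These shares are not matched for level: 9 of the 10 members reached the median level of genes in at least 1 group. Of all 19937 genes 10277 did. The median log2 difference was 0.38 over the 10 members and 0.026 over all genes. The members were listed with results of these data known, so the counts describe them and are no independent evidence of a direction.

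**Figure D1:**
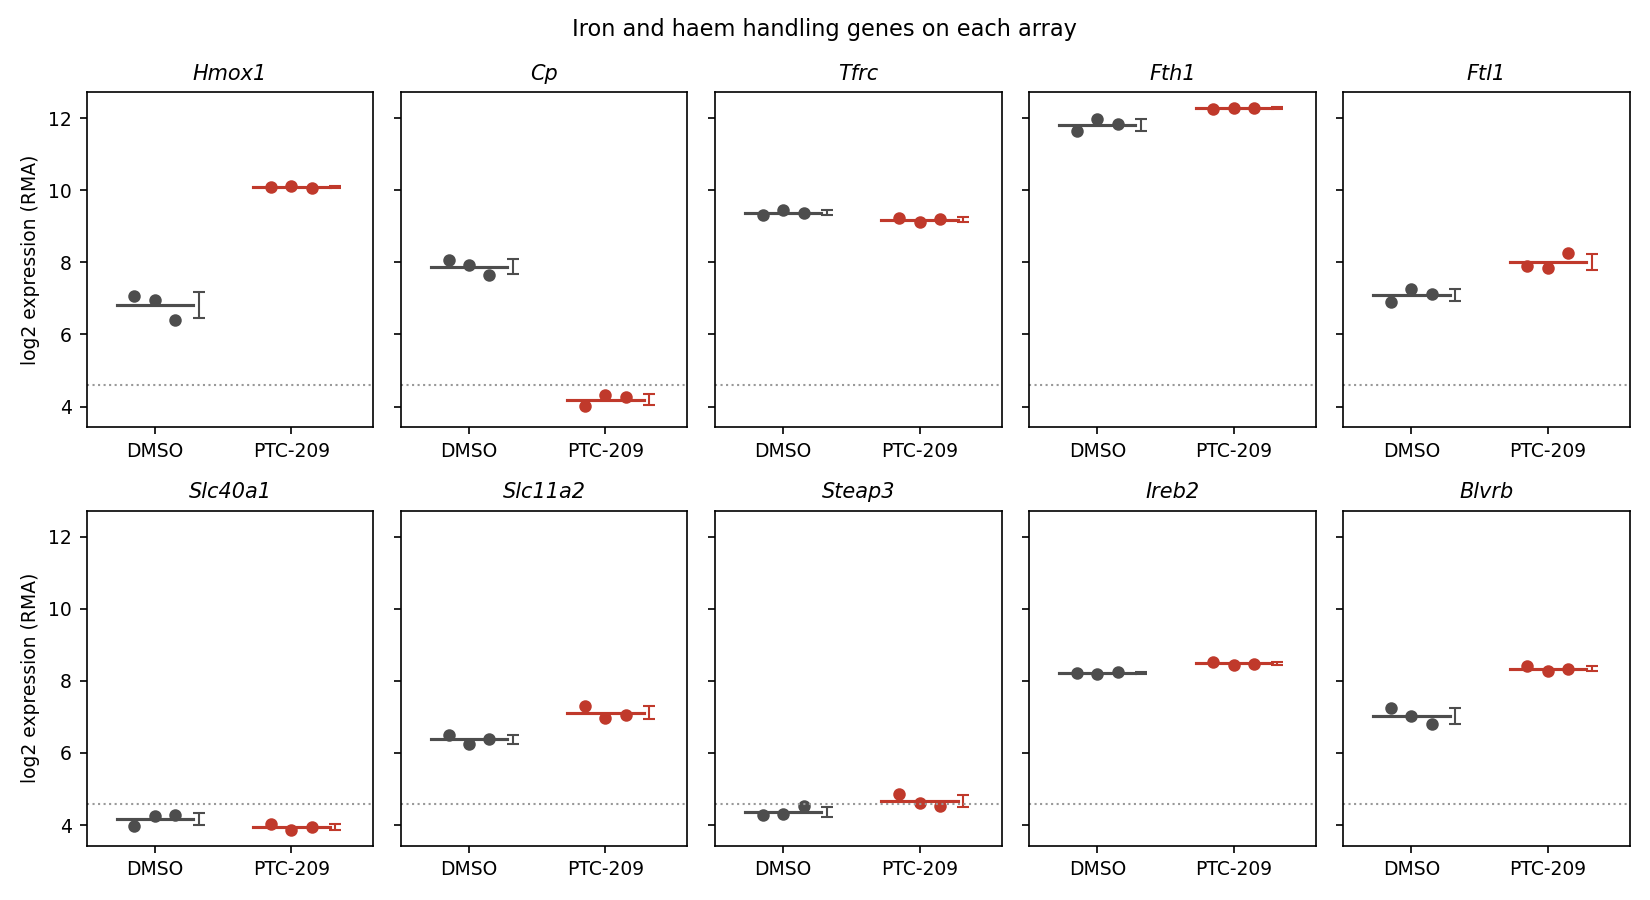
Log2 expression (RMA) of the 10 members on each array, 3 DMSO arrays in grey and 3 PTC-209 arrays in red; lines are group means, error bars are SDs and the dotted line is the median level of all genes, 4.58. Hmox1, Blvrb, Ftl1, Slc11a2 and Fth1 lay higher on every PTC-209 array, as did Steap3 and Ireb2, which were not called. Cp lay under the dotted line on all 3. Tfrc lay lower on every PTC-209 array but was not called, and Slc40a1 overlapped between the groups.

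All 8 epithelial markers reached the median level of genes in at least 1 group. Their mean on an array ran from 9.04 to 9.11 in DMSO and from 8.50 to 8.64 with PTC-209, and 4 of them fell (Krt7, Krt8, Krt18 and Krt19) while 2 rose (Cdh1 and Cldn4). Of 7 markers of lung epithelium only Foxa2 reached that median and 0 were called; their mean ran from 3.63 to 3.69 in DMSO and from 3.72 to 3.75 with PTC-209. Macrophages and red cell precursors handle much iron. Of 10 macrophage markers 3 reached the median, Cd68, which rose from 7.42 to 10.03, and Mrc1 and Cd14, which fell, while the defining Ptprc, Csf1r and Adgre1 lay between 2.52 and 3.57 in both groups. The macrophage list had a mean of 4.40 to 4.45 on the DMSO arrays and 4.40 to 4.47 on the others. Of 5 measured red cell markers 0 were called and 4 lay under the median in both groups, with a mean of 3.65 to 3.71 against 3.60 to 3.74. Of 7 fibroblast markers 0 were called (mean 3.71 to 3.84 against 3.82 to 3.94). The 6 endothelial markers had a mean of 4.32 to 4.51 against 4.28 to 4.38. Of these 1 fell, the bright Cdh5, from 9.48 to 8.15, and the other 5 lay under the median in both groups. Over both directions 75% of the epithelial, 30% of the macrophage and 16.7% of the endothelial markers were called, against 26.6% of all genes. For lung epithelium, red cells and fibroblasts this share was 0%. Of the epithelial markers 50% fell and 25% rose, against 13.7% and 12.9% of all genes. The part of the markers that moved in the results for iron genes was not tested. Bmi1, the targeted gene, fell by 0.54 on the log2 scale (adjusted p = 0.00424) but did not pass against a minimum fold of 1.2 (adjusted p = 0.0942), a stricter form of the test. In RNA of whole cultures, fewer cells of a type and less RNA per cell cannot be told apart.

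Haem breakdown held the largest rise among the members. Hmox1, the inducible haem oxygenase, stood at 7.07, 6.96 and 6.41 on the DMSO arrays and at 10.09, 10.10 and 10.07 with PTC-209. The groups were far apart, and DMSO replicate 3 was the lowest of all arrays. The log2 difference was 3.27 (SE 0.16, adjusted p = 9.90e-07), a 9.67-fold higher level with a 95% confidence interval from 7.53 to 12.4, and by size it was rise number 7 among all genes. The spread differed much between the groups: the DMSO SD of 0.36 was larger than that of 98.0% of genes, and the PTC-209 SD of 0.017 larger than that of only 1.76%.

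Blvrb, a reductase of biliverdin and flavins, stood at 7.25, 7.02 and 6.80 in DMSO and at 8.42, 8.27 and 8.34 with PTC-209. All PTC-209 arrays were more than 1 unit above all DMSO arrays, and DMSO replicate 3 was again the lowest. The level was 2.49-fold higher, with a 95% confidence interval from 2.05 to 3.03 (adjusted p = 5.16e-05), on the log2 scale a difference of 1.32 (SE 0.125). The sister genes of both enzymes moved the other way. Hmox2, the constitutive haem oxygenase, fell from 8.12 ± 0.10 to 7.50 ± 0.079, a 1.54-fold lower level (log2 difference -0.62, adjusted p = 0.00133). Blvra, the main biliverdin reductase of adult tissue, fell from 6.78 ± 0.060 to 5.89 ± 0.14, a 1.86-fold lower level (log2 difference -0.90, adjusted p = 0.000182). For both sister genes the 3 PTC-209 arrays lay below the 3 DMSO arrays.

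**Figure D2:**
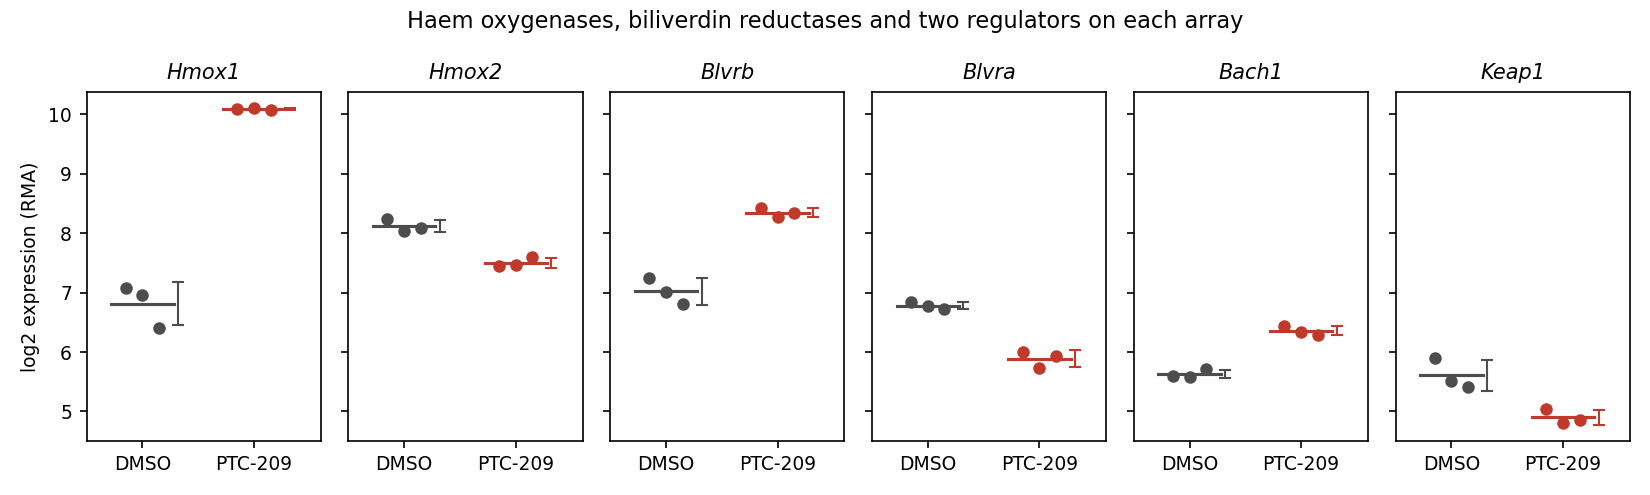
Log2 expression (RMA) on each array of the haem oxygenases Hmox1 and Hmox2, the biliverdin reductases Blvrb and Blvra and the regulators Bach1 and Keap1, with DMSO arrays in grey and PTC-209 arrays in red; lines are means and error bars SDs of 3 arrays. Hmox1, Blvrb and Bach1 were higher and Hmox2, Blvra and Keap1 lower with PTC-209, with no overlap of the groups in any of the 6.

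Of the 13 other measured genes of haem breakdown and traffic 1 rose and 5 fell. These are 7.7% and 38.5%, against 12.9% and 13.7% of all genes. The 1 that rose was Slc48a1, which moves haem out of lysosomes, from 7.52 ± 0.16 to 8.38 ± 0.11 (log2 difference 0.86, adjusted p = 0.000392). Besides Hmox2 and Blvra, the falls were Abcg2, Hebp2 and Hebp1. Abcg2, a membrane pump that exports porphyrins and many drugs, went from 6.29, 6.21 and 6.08 in DMSO to 4.03, 4.13 and 3.81 with PTC-209, where all 3 arrays lay under the median level of genes. It fell (adjusted p = 1.22e-06), with a measured log2 difference of -2.20 whose size is uncertain because the PTC-209 level is so dim. The haem-binding protein gene Hebp2 fell by 0.74 (adjusted p = 0.000688). Hebp1 fell by 0.35 (adjusted p = 0.0224), a call lost when DMSO replicate 3, PTC-209 replicate 1 or PTC-209 replicate 2 was left out (adjusted p 0.0657 to 0.0908). Leaving out PTC-209 replicate 3 gave 2 rises.

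Of the members that bring iron in, Slc11a2 was higher and Tfrc was not called. Slc11a2, the divalent metal transporter DMT1, stood at 6.50, 6.25 and 6.39 in DMSO and at 7.31, 6.98 and 7.06 with PTC-209, so every PTC-209 array was above every DMSO array. The level rose 1.66-fold (log2 difference 0.74, SE 0.118, adjusted p = 0.00137). Tfrc, the transferrin receptor, stood at 9.31, 9.44 and 9.37 in DMSO and at 9.23, 9.11 and 9.20 with PTC-209. The groups were apart by only 0.074, and the log2 difference of -0.19 (95% confidence interval -0.40 to 0.017) did not pass the test (adjusted p = 0.189). After cyclic loess normalization Tfrc passed, at -0.27 (adjusted p = 0.0473). The messages of both genes can carry an iron-responsive element after the coding part, where an iron regulatory protein protects the transferrin receptor message from decay.

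Steap3, the endosomal ferric reductase, was near the median level of genes, at 4.27, 4.31 and 4.52 in DMSO and at 4.85, 4.61 and 4.53 with PTC-209. The nearest arrays of the groups were 0.017 apart. The log2 difference of 0.30 (95% confidence interval 0.035 to 0.56) did not pass after adjustment (adjusted p = 0.105). Its relative Steap2 fell, from 8.15 ± 0.11 to 7.09 ± 0.24 (log2 difference -1.06, adjusted p = 0.000302), and a second, dimmer probe set of Steap2 fell too (log2 difference -1.38, adjusted p = 8.79e-06).

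Among the 13 other measured genes of iron uptake 1 rose and 4 fell, or 7.7% and 30.8%, against 12.9% and 13.7% of all genes. Slc39a14, the transporter ZIP14 for iron that is not bound to transferrin, rose from 5.33 ± 0.14 to 5.99 ± 0.21 (log2 difference 0.66, adjusted p = 0.00414). Lcn2, a secreted lipocalin that binds iron-siderophore complexes, fell from 8.73, 8.61 and 8.13 in DMSO to 6.87, 6.91 and 6.64 with PTC-209, a 3.21-fold lower level (adjusted p = 5.16e-05). Snx3, a sorting nexin that returns the transferrin receptor to the cell surface, fell by 0.56 (adjusted p = 0.00267), and did not pass against the minimum fold (adjusted p = 0.0612). Steap4, dim in both groups, fell by 0.33 (adjusted p = 0.0345), a call that held without DMSO replicate 1 and was lost without each of the other 5 arrays (adjusted p 0.0621 to 0.124). It lies outside the rule for naming genes and was picked after its value was seen, to complete the count. Leaving out DMSO replicate 1 kept 4 falls and gave 2 rises, and leaving out any other array gave 3 falls.

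The probe sets assigned to both ferritin chains rose. Fth1, the heavy chain with the site that oxidises iron, stood at 11.64, 11.96 and 11.82 in DMSO and at 12.24, 12.29 and 12.29 with PTC-209. The groups did not overlap, and the spread in DMSO was the wider one. The level rose 1.38-fold (adjusted p = 0.0103), with a 95% confidence interval from 1.17 to 1.63 and a log2 difference of 0.46 (SE 0.106). It did not pass against the minimum fold of 1.2 (adjusted p = 0.262). Ftl1, the light chain, which helps the iron core to form, stood at 6.91, 7.25 and 7.12 in DMSO and at 7.90, 7.85 and 8.27 with PTC-209. All PTC-209 arrays were at least 0.60 above the DMSO arrays. The level rose 1.89-fold (adjusted p = 0.000934), with a 95% confidence interval from 1.52 to 2.34 and a log2 difference of 0.92 (SE 0.138). DMSO replicate 1 was the lowest array for both chains. Ferritin genes have many processed copies in the genome, and 3 further probe sets list Ftl1 together with microRNA genes and were not used. The size of either rise is therefore uncertain. Whether the probe set of either chain reads the gene itself or a copy was not tested, and the direction of the 3 further probe sets is not given here.

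Of the 4 other genes of ferritin loading and release, Ncoa4 and Pcbp1 rose, or 50%, against 12.9% of all genes. Ncoa4, the receptor that carries ferritin to the autophagosome, went from 8.05, 8.39 and 8.28 to 9.16, 8.81 and 8.93 (log2 difference 0.73, adjusted p = 0.00223), and its second probe set rose by 0.66 (adjusted p = 0.000424). Pcbp1, a chaperone that delivers iron to ferritin, was higher by 0.32 (adjusted p = 0.0301), a call lost whichever of the 6 arrays was left out, so that 1 rise remained in this list in each case. The other 2 genes of the list did not pass the test.

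Iron export held the largest fall. Cp, ceruloplasmin, the copper oxidase that works with ferroportin, stood at 8.08, 7.92 and 7.66 in DMSO and at 4.01, 4.31 and 4.27 with PTC-209. The nearest arrays of the groups were 3.34 apart, and with PTC-209 all 3 lay under the median level of genes, where a probe set reads little above background and the fold is uncertain. The log2 difference was -3.69 (SE 0.133, 95% confidence interval -3.99 to -3.39, adjusted p = 2.61e-07), by size fall number 11 among all genes. Slc40a1, ferroportin itself, was under the median level in both groups, at 3.98, 4.25 and 4.28 in DMSO and at 4.02, 3.85 and 3.95 with PTC-209. Its groups overlapped, and the log2 difference of -0.23 (95% confidence interval -0.48 to 0.023) did not pass the test (adjusted p = 0.194). Without DMSO replicate 1 it passed narrowly, at -0.32 (adjusted p = 0.0498).

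Heph, hephaestin, another ferroxidase, was dim in both groups, at 3.21 ± 0.24 in DMSO and 3.31 ± 0.064 with PTC-209, and its log2 difference of 0.10 did not pass the test (adjusted p = 0.653). App, the amyloid precursor protein, said to steady ferroportin at the membrane, was the 1 fall among the 3 other export genes, from 10.11 ± 0.076 to 9.66 ± 0.054 (log2 difference -0.45, adjusted p = 0.00614). App did not pass against the minimum fold (adjusted p = 0.232). Its 1 fall stands beside the 13.7% of all genes that fell.

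Ireb2, the iron regulatory protein IRP2, varied little within groups, at 8.21, 8.20 and 8.25 in DMSO and at 8.53, 8.44 and 8.47 with PTC-209. Every PTC-209 array was higher, yet the log2 difference of 0.26 (95% confidence interval 0.063 to 0.46) missed the threshold (adjusted p = 0.0614). It passed with a trended and robust prior (adjusted p = 0.0248), without dim probe sets (0.0285) and when probe sets of a gene were averaged (0.0492). Aco1, the iron regulatory protein IRP1, overlapped between the groups, at 8.15 ± 0.22 and 8.22 ± 0.055 (adjusted p = 0.738). Fbxl5, the ubiquitin ligase subunit that removes IRP2 when iron is plentiful, had a mean of 7.17 ± 0.016 in DMSO and was at 6.88 ± 0.14 with PTC-209, a log2 difference of -0.29 that did not pass the test (adjusted p = 0.0685). It passed without dim probe sets (0.0341), after cyclic loess (0.0313) and with array weights (0.0367).

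Of the 9 other genes listed under iron sensing and its hormone 1 rose and 1 fell. Either way that is 11.1%, under the 12.9% and 13.7% of all genes. Neo1, neogenin, a receptor that binds hemojuvelin and many other ligands, rose from 8.86 ± 0.12 to 9.91 ± 0.097 (log2 difference 1.05, adjusted p = 6.99e-05). The membrane protease gene Tmprss2 fell from 4.87 ± 0.42 to 3.90 ± 0.13 (adjusted p = 0.00414), a dim level; it is a relative of the hepcidin regulator Tmprss6 and is not known for a part in iron sensing. Hamp, hepcidin, was at 1.83 and 1.77, well under the median level of genes (adjusted p = 0.826). Without PTC-209 replicate 2 the falls numbered 2.

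**Figure D3:**
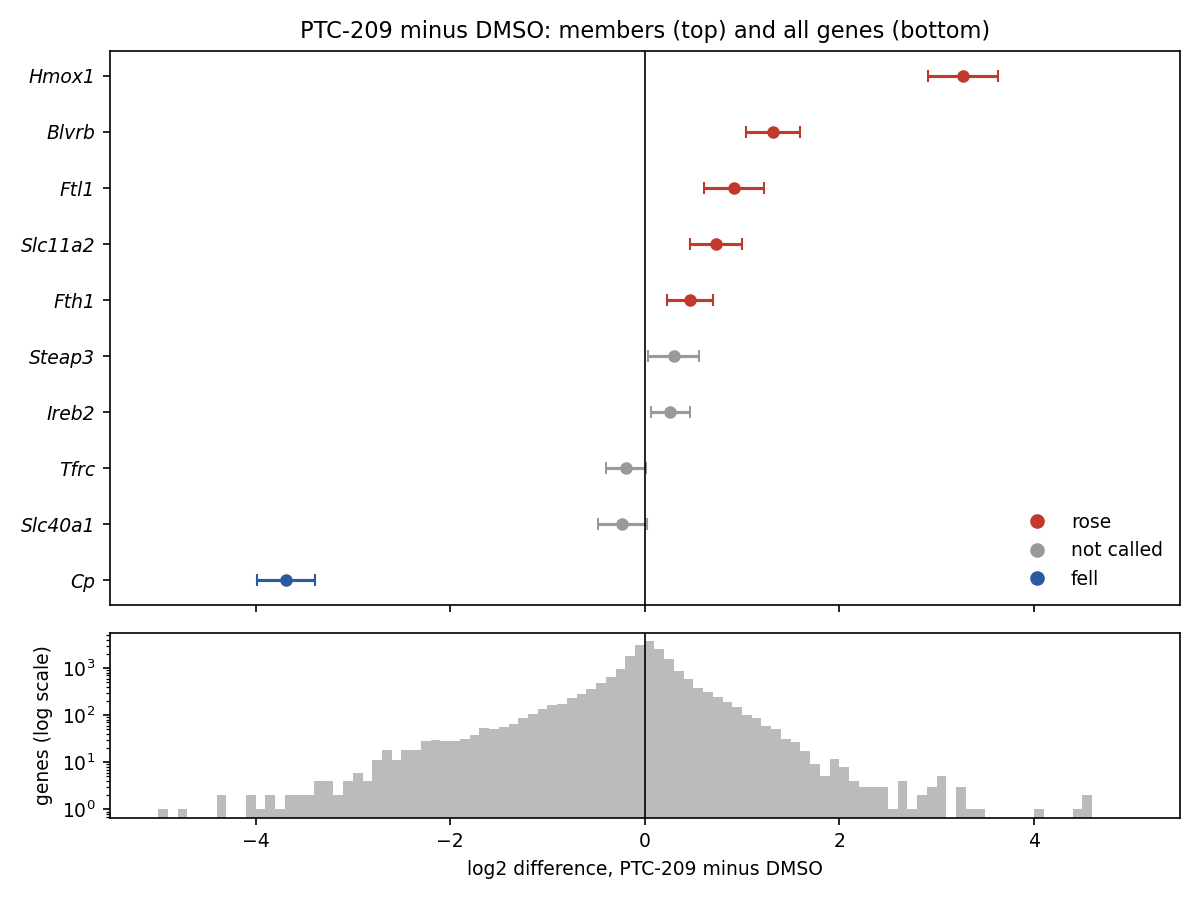
Log2 difference, PTC-209 minus DMSO, with 95% confidence intervals from limma for the 10 members (top, red rose, blue fell, grey not called), above the distribution of the difference over all 19937 genes (bottom, log scale of gene number). Hmox1 at 3.27 and Cp at -3.69 lay in the sparse tails, and the other 8 lay between -0.23 and 1.32.

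The factors that read haem or oxidative stress were listed together with their small Maf partners, with results of these data known. Of these 8 genes 6 rose and 1 fell, against 12.9% and 13.7% of all genes, with a median log2 difference of 0.91. Both counts of the list were the same whichever array was left out. Bach1, the repressor that haem binds and inactivates, rose from 5.60, 5.58 and 5.71 to 6.44, 6.33 and 6.29 (log2 difference 0.73, adjusted p = 0.000373). The small Maf genes rose together, Mafk by 1.30 (adjusted p = 2.42e-05), Mafg by 1.16 (adjusted p = 2.45e-05) and Maff by 1.09 (adjusted p = 4.09e-05). Nfe2l1, the NRF2 relative NRF1, rose by 1.10 (adjusted p = 2.42e-05), and Nfe2l2, NRF2 itself, by 0.42 (adjusted p = 0.00702). Nfe2l2 did not pass against the minimum fold (adjusted p = 0.315). Keap1, the adaptor that sends NRF2 to the proteasome, fell from 5.91, 5.51 and 5.41 to 5.04, 4.80 and 4.86 (log2 difference -0.71, adjusted p = 0.00455).

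The windows of 10 regulators and partners of the members, picked for their role with results known, were searched too, and 9 of them had at least 1. The antioxidant response element core, found in 0 member windows, was found for 5 of these genes, in 5 of 17 windows, and the 5 stretches are shown to set the letters beside the direction of each gene. Of the 5 genes Mafg, Mafk, Maff and Nfe2l2 rose and Blvra fell. Among the searched genes with a window but without the core, Bach1 and Nfe2l1 rose and Keap1 and Hmox2 fell. Of all windows 12.4% held the core, and whether the core goes with direction was not tested. Capitals mark the core, which reads on the opposite strand in Mafg, Mafk and Blvra. In GRCm38.p6 the stretches are chr11:120633753-120633777 (Mafg, minus strand), chr5:139791515-139791535 (Mafk, plus strand), chr15:79346501-79346525 (Maff, plus strand), chr2:75704887-75704911 (Nfe2l2, minus strand) and chr2:127070600-127070624 (Blvra, plus strand). In the same order the cores begin at positions -222, -13, -112, -240 and -49 from the start, and Maff has it at 1 of its 3 starts.
Mafg: ctgcaggaGCACGGTCAacccggcg
Mafk: tcccggaaGCGGTGTCAgtac
Maff: gcgtctcaTGACTCTGCcactggaa
Nfe2l2: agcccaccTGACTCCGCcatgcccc
Blvra: cgggaattGCTCGGTCAaggctccg

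Haem synthesis was mixed, with 3 rises and 3 falls among 14 measured genes and a median log2 difference of -0.0041. Either way that is 21.4%, against 12.9% of all genes that rose and 13.7% that fell. Slc25a38, which brings glycine into mitochondria for the first step, rose from 4.66 ± 0.11 to 5.25 ± 0.15 (log2 difference 0.60, adjusted p = 0.00321). It did not pass against the minimum fold (adjusted p = 0.0560). Alad, the enzyme of the second step, fell from 9.41 ± 0.13 to 8.93 ± 0.13 (log2 difference -0.48, adjusted p = 0.0105), and did not pass against the minimum fold either (adjusted p = 0.229). Uros, a later enzyme of the pathway that was dim in both groups, fell from 4.42 ± 0.077 to 3.68 ± 0.045 (adjusted p = 0.00029); it was named after its value was seen, since the count is small. The remaining calls were small: Ppox (0.42) and Clpx (0.38) were higher and Tmem14c (-0.41) was lower. Ppox lost its call when DMSO replicate 2, DMSO replicate 3 or PTC-209 replicate 3 was left out (adjusted p 0.0556 to 0.0658), and Clpx when PTC-209 replicate 2 was (adjusted p = 0.0641). Tmem14c lost it when DMSO replicates 1 and 3 and PTC-209 replicates 2 and 3 were left out in turn (adjusted p 0.0531 to 0.0886). The rises and the falls in this list then numbered 2 to 3 each. Alas1, the first enzyme of the pathway in most tissues, and Fech, which inserts the iron, did not pass the test (log2 differences -0.13 and -0.071). Over all alternatives these ran from -0.17 to -0.068 for Alas1 and from -0.10 to -0.030 for Fech.

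In the mitochondrial import of iron and the assembly of iron-sulphur clusters 7 of 23 measured genes rose and 3 fell, with a median of 0.23. As shares these counts are 30.43% and 13.04%, against 12.9% and 13.7% of all genes. The share that fell was thus no higher than among all genes. Slc25a37, mitoferrin, which carries iron into mitochondria, rose from 6.57, 6.27 and 6.46 to 7.56, 7.35 and 7.52, a 2.06-fold higher level (adjusted p = 0.000111). The assembly chaperones Hscb (0.65, adjusted p = 0.00209) and Hspa9 (0.63, adjusted p = 0.000717) and the cytosolic factor Ciapin1 (0.51, adjusted p = 0.0057) rose too, though Ciapin1 did not pass against the minimum fold (adjusted p = 0.136). Bola3, which helps to hand over clusters in mitochondria, fell from 6.85, 7.19 and 6.91 to 5.35, 5.64 and 5.73 (log2 difference -1.41, adjusted p = 5.26e-05). Nubp1, a cytosolic scaffold, fell by 0.81 (adjusted p = 0.000713) and Ciao2a, of the cytosolic targeting complex, by 0.68 (adjusted p = 0.000803). The other 3 rises, of Nfs1, Isca1 and Fdx1, were lost when single arrays were left out, and the rises then numbered 5 to 7. A second, dimmer probe set of Isca1 rose by 0.53 (adjusted p = 0.00538), with no overlap of the groups.

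**Figure D4:**
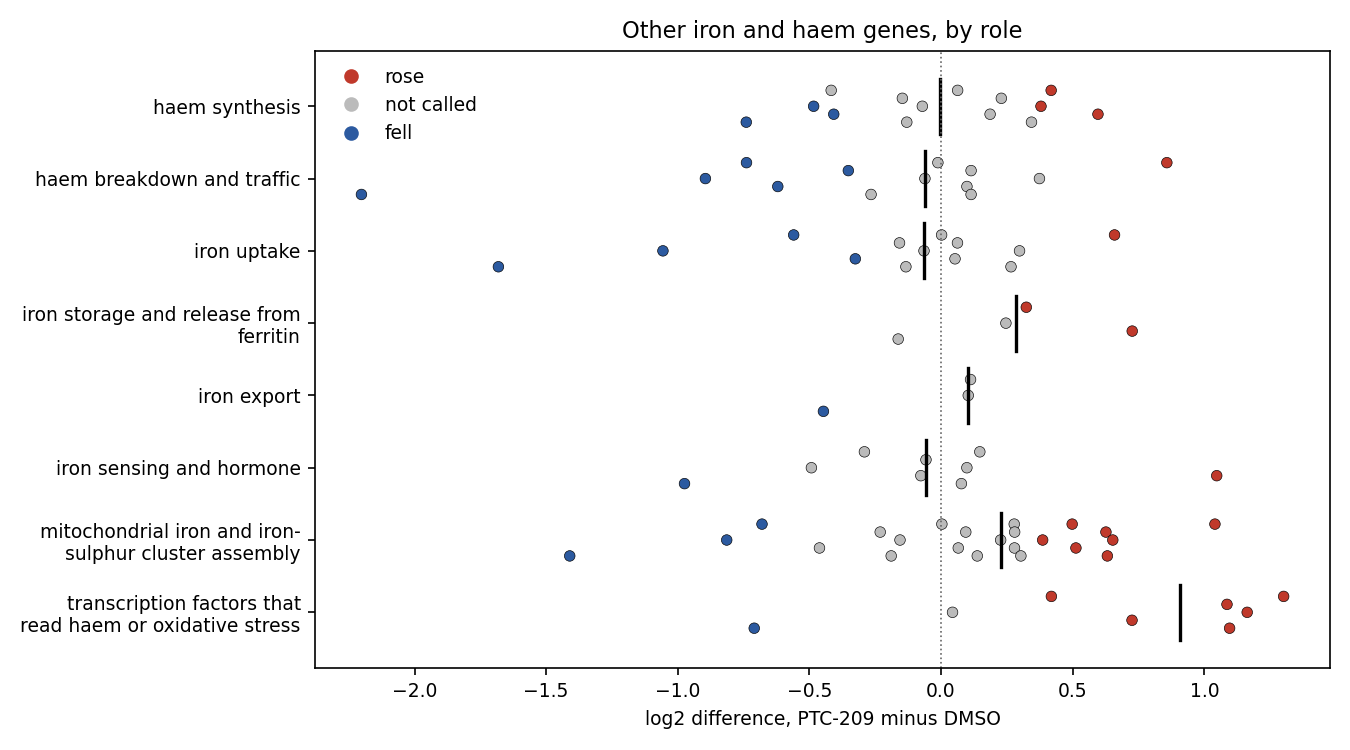
Log2 difference, PTC-209 minus DMSO, of the other iron and haem genes by role, 1 point per gene (red rose, blue fell, grey not called), with the median of each role as a black line. The factors that read haem or oxidative stress, listed with their small Maf partners, had a median of 0.91. The medians of haem synthesis, haem breakdown and iron uptake were -0.0041, -0.061 and -0.065.

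Over all 8 roles, 87 of 95 listed genes besides the members were measured. Of these 21 rose, or 24.1%, against 12.9% of all genes, and 18 fell, or 20.7%, against 13.7%. Their median log2 difference was 0.065, and 48 did not pass the test. Of the 39 called, 30 were called whichever array was left out, 15 that rose and 15 that fell. In at least 1 group 65 of the 87 reached the median level of genes, against 10277 of all 19937 genes. The shares are thus not matched for level, and the part of level in them was not tested.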

How the data were processed

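The authors deposited log2 expression values for 34760 probe sets on 6 Affymetrix arrays, made with RMA per the submitters' processing notes, which name no version and no genome build. RMA forces near-equal distributions on all arrays, so it would hide a change common to most genes. Groups were taken from the sample titles. The description field speaks of embryos and was not used. The labels do not say that arrays came from separate cultures, so p-values measure only how these samples vary, possibly for technical reasons. With 3 arrays a group, their number limits the precision.

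A block of 6568 control probe sets, recognised by its unbroken run of identifiers with 0 listed genes, was left out. Of the 28192 others, 21640 have 1 gene symbol, 1321 several and 5231 none. The fit used limma 3.58.1 in R 4.3.3 with treatment as the only term (residual degrees of freedom 4, prior 5.27, median residual SD 0.14), and was tested on simulated data. Figures used matplotlib 3.10.9. The members, the role lists and the markers were chosen with earlier results of these data known. Named were all members, genes of the role lists that passed the test without overlap of the groups and at or above the median level of genes (4.58), and a fixed set of their partners. Steap4 and Uros lie outside this rule and were named after their values were seen, to complete a small count. Alternatives were another prior, no dim probe sets, cyclic loess, median centring, a minimum fold change of 1.2 (treat), averaged probe sets, the replicate number as a block, array weights, keeping the control block and leaving out each array.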

Additional observations from a re-analysis of the deposited data

How the results depend on the processing

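Of the 10 members 6 kept their direction and their side of the threshold under every alternative that could be run, as did 27 of 46 other genes (those of the naming rule, Steap4 and Uros); some dim genes have no value where dim probe sets were left out. Among the members 5 rose under every array left out, and 4 to 6 over all alternatives. The falls numbered 2 after cyclic loess and 1 to 2 over the arrays left out. Of the other iron and haem genes 12 rose and 12 fell, in place of 21 and 18, when a fold change above 1.2 was required, when 2880 of all genes were called in place of 5306. After cyclic loess 19 rose and 22 fell, so that falls outnumbered rises. With that setting 5477 of all genes were called, and the median log2 difference over all genes was -0.0050 in place of 0.026. Over the arrays left out 17 to 21 of the other iron and haem genes rose and 15 to 17 fell, and 4350 to 5114 of all genes were called. Among genes that were not called, the difference of Heph ran from -0.024 (without DMSO replicate 2) to 0.21 (without DMSO replicate 3), and that of Hamp from -0.15 (without DMSO replicate 2) to 0.042 (without PTC-209 replicate 3; 0.034 without DMSO replicate 3); the cause was not tested. The replicate numbers of the titles need not pair the arrays: deviations of same-numbered arrays from their group means correlated at 0.23, 0.070 and 0.073 across probe sets, and not every array correlated best with its own number. With the number as a replicate block 5 members rose and 1 fell, 21 and 19 of the other genes rose and fell, and 5533 of all genes were called.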
